A study of Danio rerio with 6 samples.

Results

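Levels of 7 genes for transcriptional regulators of surface epithelium were compared between cells sorted as GFP-positive and as GFP-negative from zebrafish embryos of the line *Tg(krt4:GFP)*, at the 4-somite stage. The genes were the Grainyhead-like genes *grhl1*, *grhl2a*, *grhl2b* and *grhl3*, the Ovo-like gene *ovol1*, *tp63* and *znf750*. They were chosen by symbol, as the rows of the deposited transcript tables that carry one of these names, and form 7 of the 26190 genes in those tables, with 21 of the 51286 transcripts. The GFP-positive population is labelled periderm and the GFP-negative population non-periderm. Each was sorted from the same transgenic line in 3 replicates, giving 6 libraries, and the series' design text ties the replicates to separate incrosses. The labels give 2000 sorted cells per library and the study's methods give a larger number. All 6 libraries carry the transgene, no embryo was treated or mutant, and GFP is driven by regulatory sequence of the keratin gene *krt4*, so that each population is defined by the activity of that transgene and not by lineage.

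The periderm, called the enveloping layer in the early fish embryo, is the outermost, flattened cell layer that covers the embryo before a stratified skin forms. Grainyhead-like proteins are DNA-binding factors that switch on epithelial adhesion, junction and barrier genes, and are known from fly cuticle and mouse skin for their part in barrier formation and wound repair. Ovo-like proteins are zinc finger factors, known in mammals for repressing mesenchymal regulators such as ZEB1. p63, the product of *tp63*, is a transcription factor that basal cells of stratified epithelia depend on, and it is made both with and without an amino-terminal transactivation domain. ZNF750 is a zinc finger factor that, in human keratinocytes, acts downstream of p63 and promotes terminal differentiation together with KLF4 and corepressors that include KDM1A and CTBP proteins.

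Library totals ranged from 40584467 to 49679602 estimated counts, and 3 counts corresponded to 0.0604 to 0.0739 CPM (counts scaled to a fixed library total). *krt4* had 2384, 2315 and 2591 TPM (a transcript level scaled by length and by library) in GFP-positive libraries. In GFP-negative libraries it had 545, 624 and 636 TPM. The GFP-negative population was therefore not free of *krt4* RNA. As its regulatory sequence drives the sorted GFP, *krt4* is no independent check of the sort. All 12 periderm markers listed, *krt4* among them, were called higher in GFP-positive cells. Their summed level was 5239 to 5447 TPM, against 846 to 932 TPM in GFP-negative cells. Markers of other tissues were present as well: the 5 hatching gland genes were all called higher (6444 to 6689 against 846 to 849 TPM summed), as were 3 of 4 notochord genes (392 to 492 against 121 to 122 TPM), 5 of 9 tested basal epidermis genes, with 1 lower (265 to 284 against 143 to 157 TPM), 1 of 5 tested ionocyte genes (49.8 to 52.9 against 43.9 to 48.0 TPM), and 2 of 4 endoderm genes (42.9 to 47.9 against 38.2 to 40.1 TPM). Of 8 neural markers 7 were lower (508 to 513 against 944 to 964 TPM), as were 3 of 4 neural crest markers, with 1 higher (49.9 to 59.0 against 69.5 to 76.4 TPM), and 3 of 6 markers of paraxial mesoderm, with 1 higher (325 to 327 against 377 to 384 TPM). The 4 markers of blood and endothelium were mixed, with 2 called higher and 1 lower (231 to 237 against 251 to 273 TPM). Beside these counts, 24.1% of all genes tested were called higher in GFP-positive cells and 25.0% lower. Most of the basal epidermis sum in both populations was the level of the gene *bcam*, given below with *tp63*. No marker of these lists was at 0 in all libraries of a population. The part of these tissues in the results for the 7 regulators was not tested, and in such sorted pools fewer cells expressing a gene and less RNA per cell cannot be told apart. Between replicates, GFP-positive replicate 3 lay farthest from another library of its group, at a chi-square of 21.7 per degree of freedom from replicate 1, against 5.39 for replicates 1 and 2.

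Of the 7 regulators 5 were higher in GFP-positive cells: *znf750*, *ovol1*, *grhl1*, *grhl2a* and *tp63*, in order of fold change. *grhl2b* and *grhl3* did not pass the test. A gene was called when the adjusted p of edgeR's quasi-likelihood test, over all 20944 genes tested, was below 0.05 and its mean level in the higher population was above 1 TPM. By the same rule 24.1% of all genes tested were called higher in GFP-positive cells and 25.0% lower, or 49.0% in either direction. All 7 genes passed the filter on low counts. On the level scale, the GFP-positive libraries all lay above the GFP-negative libraries for 5 of the 7 regulators, which was the case for 24.2% of all genes tested.

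**Figure D1:**
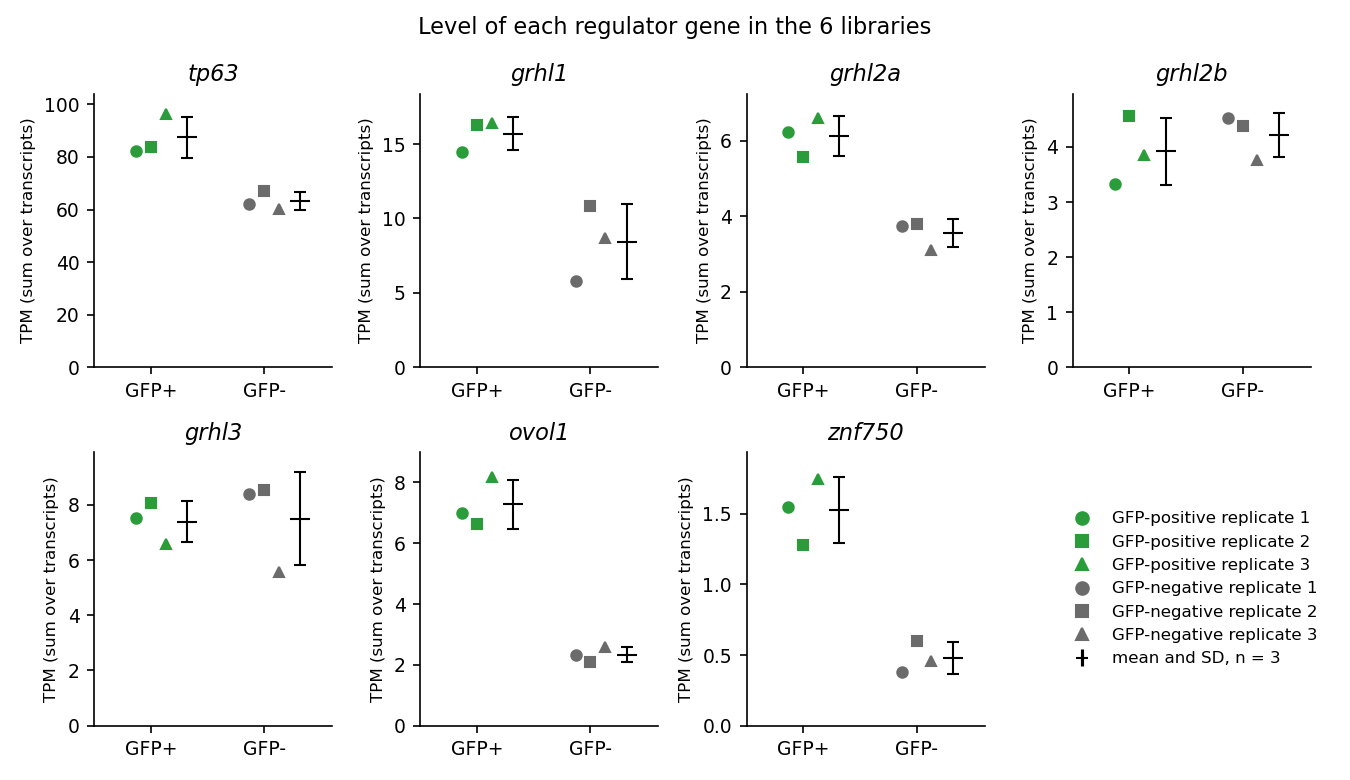
TPM of each regulator, summed over its transcripts, in the 3 GFP-positive (green, left) and 3 GFP-negative (grey, right) libraries, with symbols for replicates 1 to 3 and the mean with its SD beside them. The populations do not overlap for tp63, grhl1, grhl2a, ovol1 and znf750, and they overlap for grhl2b and grhl3.

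Among the 7 regulators *tp63* (ENSDARG00000044356) was the most abundant in both populations. It had 82.4, 83.6 and 96.4 TPM in GFP-positive libraries against 62.0, 67.0 and 60.3 TPM in GFP-negative libraries. The estimated counts behind these values were 7439, 5895 and 7083 in GFP-positive and 4293, 3619 and 3897 in GFP-negative libraries. The groups did not overlap, and every library held more *tp63* than any other of the 7 regulators. The log2 fold change was 0.73 with a standard error (SE) of 0.05 (edgeR, adjusted p = 6.25e-08). On the log2(TPM + 1) scale the difference was 0.46, with an adjusted p of 7.96e-04 by limma. The log2 ratio of the mean TPM was 0.47, below the 0.73 from summed counts, which are not corrected for transcript length. In regulators with a single transcript this ratio was also below the log2 fold change from counts. It was 0.79 against 0.90 for *grhl2a*, -0.11 against 0.01 for *grhl2b*, 1.64 against 1.75 for *ovol1* and 1.67 against 1.80 for *znf750*. The parts of scaling and of transcript length in these gaps were not tested. The basal epidermis list, whose cells are known for p63, was led in level by *bcam*, an adhesion molecule that binds laminin, at 235 ± 5.2 TPM in GFP-positive and 121 ± 7.7 TPM in GFP-negative cells (SD, n = 3 each), while the basal keratin gene *krtt1c19e* stood at 1.09 ± 0.17 and 0.197 ± 0.036 TPM. The integrin gene *itgb4* was the one of this list called lower (log2 fold change -0.55, SE 0.15, edgeR adjusted p = 0.00739). The part of basal cells in the *tp63* difference was not tested.

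The 7 transcripts of *tp63* were not all called. Whether they changed unequally depended on the test, as given below. The most abundant one in GFP-positive cells, ENSDART00000065137 of 2959 bases, had 45.6, 41.5 and 40.5 TPM there against 25.0, 20.9 and 24.7 TPM in GFP-negative cells. Its log2 fold change was 0.99 (SE 0.11, adjusted p = 7.88e-04 by edgeR over 32736 transcripts). Transcript ENSDART00000065135 of 2783 bases was less abundant and differed more, with 4.36, 5.94 and 6.29 TPM in GFP-positive cells against 1.80, 2.28 and 0.659 TPM in GFP-negative libraries, a log2 fold change of 1.94 (SE 0.41, adjusted p = 0.0101). In both cases the populations did not overlap.

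A further abundant *tp63* transcript, ENSDART00000123189 of 1444 bases, showed no difference past its spread. It had 22.9, 22.6 and 32.3 TPM in GFP-positive cells against 23.3, 30.2 and 21.5 TPM in GFP-negative libraries (log2 fold change 0.17, SE 0.16, adjusted p = 0.434 by edgeR). The values overlapped, with 1 high library in each population. The transcript of 1731 bases, ENSDART00000130799, ranged from 4.67 to 12.3 TPM in GFP-positive and from 7.70 to 9.66 TPM in GFP-negative libraries (log2 fold change 0.12, SE 0.30), and the transcript of 2497 bases, ENSDART00000127965, ranged from 3.23 to 4.76 and from 3.01 to 3.56 TPM (log2 fold change 0.48, SE 0.18, adjusted p = 0.0771 by edgeR). The transcript of 3086 bases, ENSDART00000163541, was the rarest one detected and the only tested *tp63* transcript with a negative log2 fold change (-0.93, SE 0.38, adjusted p = 0.104 by edgeR), at 0.241 to 0.451 TPM in GFP-positive and 0.548 to 0.936 TPM in GFP-negative cells. The last transcript, ENSDART00000168237, had 0 counts in all 6 libraries. The tables do not state which transcripts encode the transactivation domain.

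**Figure D2:**
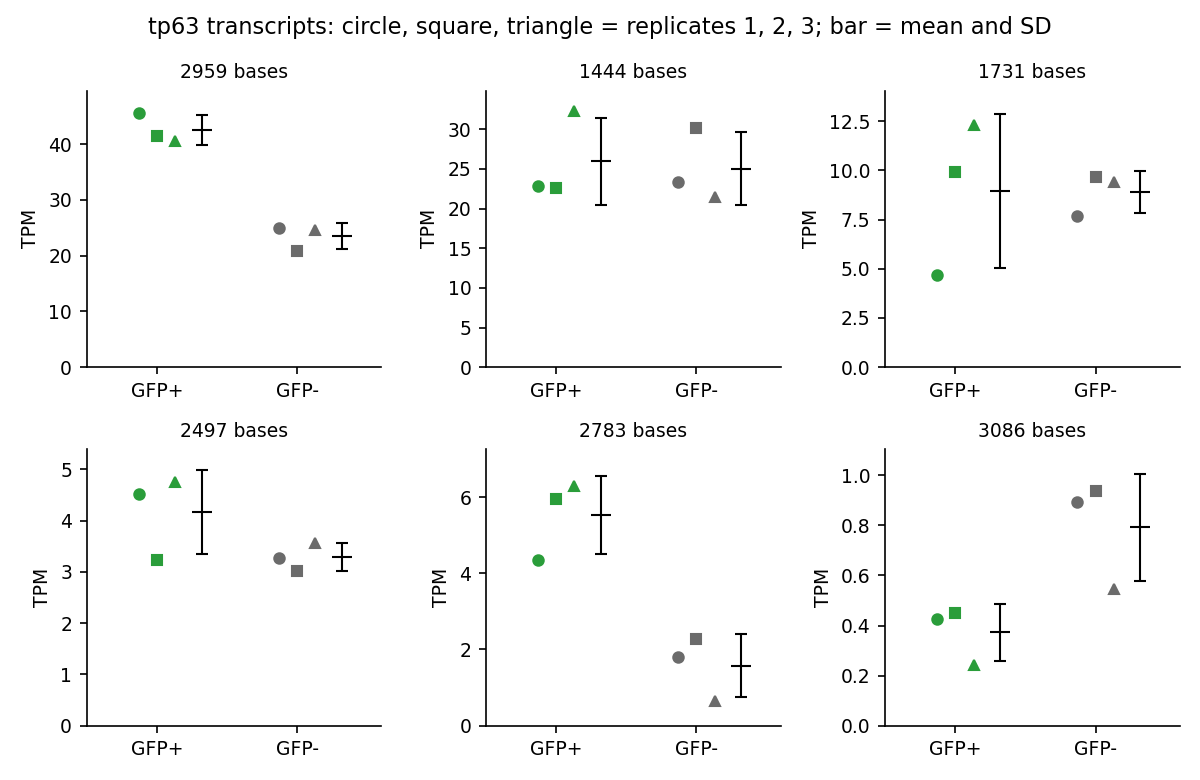
TPM of the 6 tested tp63 transcripts, titled by their length, in GFP-positive (green, left) and GFP-negative (grey, right) libraries; each panel has its own axis from 0. The transcripts of 2959 and 2783 bases separate the populations with GFP-positive libraries above, and that of 3086 bases with GFP-positive libraries below, while those of 1444, 1731 and 2497 bases overlap.

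As shares of the gene's TPM, the transcript of 2959 bases made up 49.0% ± 6.7 in GFP-positive and 37.5% ± 5.5 in GFP-negative cells, and that of 1444 bases 29.4% ± 3.6 and 39.4% ± 5.0 (SD, n = 3 each). The transcript of 2783 bases made up 6.30% ± 0.93 and 2.47% ± 1.22. A test of unequal change among the transcripts of a gene (edgeR's diffSpliceDGE) gave an adjusted p of 0.00310 for *tp63*, with the transcript of 2783 bases 0.83 on the log2 scale above the gene as a whole (adjusted p = 0.0332). The transcripts of 2959 and 1444 bases were not called by diffSpliceDGE (adjusted p = 0.509 and 0.0904). The same test called 23.1% of 7757 genes with several tested transcripts. By limma on the log2 ratio of a transcript to the rest of its gene, *tp63* had an adjusted p of 0.196. Its transcripts of 2959, 1444 and 2783 bases had adjusted p of 0.196, 0.106 and 0.134 by limma. The unequal change was thus not called there, where 7.58% of genes were. That fit drew each transcript's spread towards a shared trend and took the smallest Holm-adjusted transcript p as the gene's p. Reads that fit several transcripts of a gene were divided among them by estimation, and that error is not part of either test.

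The 4 Grainyhead-like genes split into a pair that was higher in GFP-positive cells and a pair that was not called. *grhl1* (ENSDARG00000061391) had 14.4, 16.3 and 16.4 TPM in GFP-positive against 5.81, 10.8 and 8.70 TPM in GFP-negative libraries. GFP-negative replicate 1 was the lowest of its group, and the groups did not overlap. The log2 fold change was 1.01 (SE 0.15, edgeR adjusted p = 7.61e-05), and without any 1 library it ranged from 0.89 to 1.15.

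*grhl2a* (ENSDARG00000058342), with a single transcript of 2181 bases, had 6.21, 5.56 and 6.61 TPM in GFP-positive and 3.74, 3.80 and 3.11 TPM in GFP-negative libraries. Every GFP-positive library was above every GFP-negative one, at a log2 fold change of 0.90 (SE 0.13, edgeR adjusted p = 3.43e-05). Its paralog *grhl2b* (ENSDARG00000061974), with a single transcript of 3699 bases, had 3.34, 4.56 and 3.86 TPM in GFP-positive and 4.52, 4.38 and 3.76 TPM in GFP-negative libraries. These values overlapped, and the log2 fold change of 0.01 (SE 0.13, edgeR adjusted p = 0.961) had a 95% interval of -0.26 to 0.28, against 0.63 to 1.17 for *grhl2a*. Its sign turned with the scaling and was -0.09 on log2(TPM + 1). The difference between the fold changes of both paralogs was not itself tested.

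*grhl3* (ENSDARG00000078552) had 7.52, 8.08 and 6.60 TPM in GFP-positive and 8.40, 8.55 and 5.58 TPM in GFP-negative libraries. The GFP-negative libraries lay both above and below the GFP-positive ones. On summed counts the log2 fold change was 0.29 (SE 0.12, 95% interval 0.03 to 0.54) with an edgeR adjusted p of 0.0570, and on log2(TPM + 1) it was -0.003. It was called without GFP-positive replicate 3 (adjusted p = 0.0117) and without GFP-negative replicate 1 (0.0381), and with all 6 libraries under a replicate block (0.0431) or without transcripts under 1000 bases (0.0170), each by edgeR. Of its 4 transcripts, that of 2659 bases, ENSDART00000114215, held 97.7% ± 0.94 of the gene's counts in GFP-positive and 94.5% ± 2.9 in GFP-negative cells (SD, n = 3 each). This transcript alone had 6.35, 6.86 and 5.99 TPM in GFP-positive against 5.93, 5.62 and 4.97 TPM in GFP-negative libraries, a log2 fold change of 0.36 (SE 0.12, edgeR adjusted p = 0.0660). The other three *grhl3* transcripts, ENSDART00000147192, ENSDART00000144663 and ENSDART00000151911 of 776, 793 and 527 bases, had between 0 and 21.6 counts in a library. Only the first of them was tested (log2 fold change -1.48, SE 1.07).

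**Figure D3:**
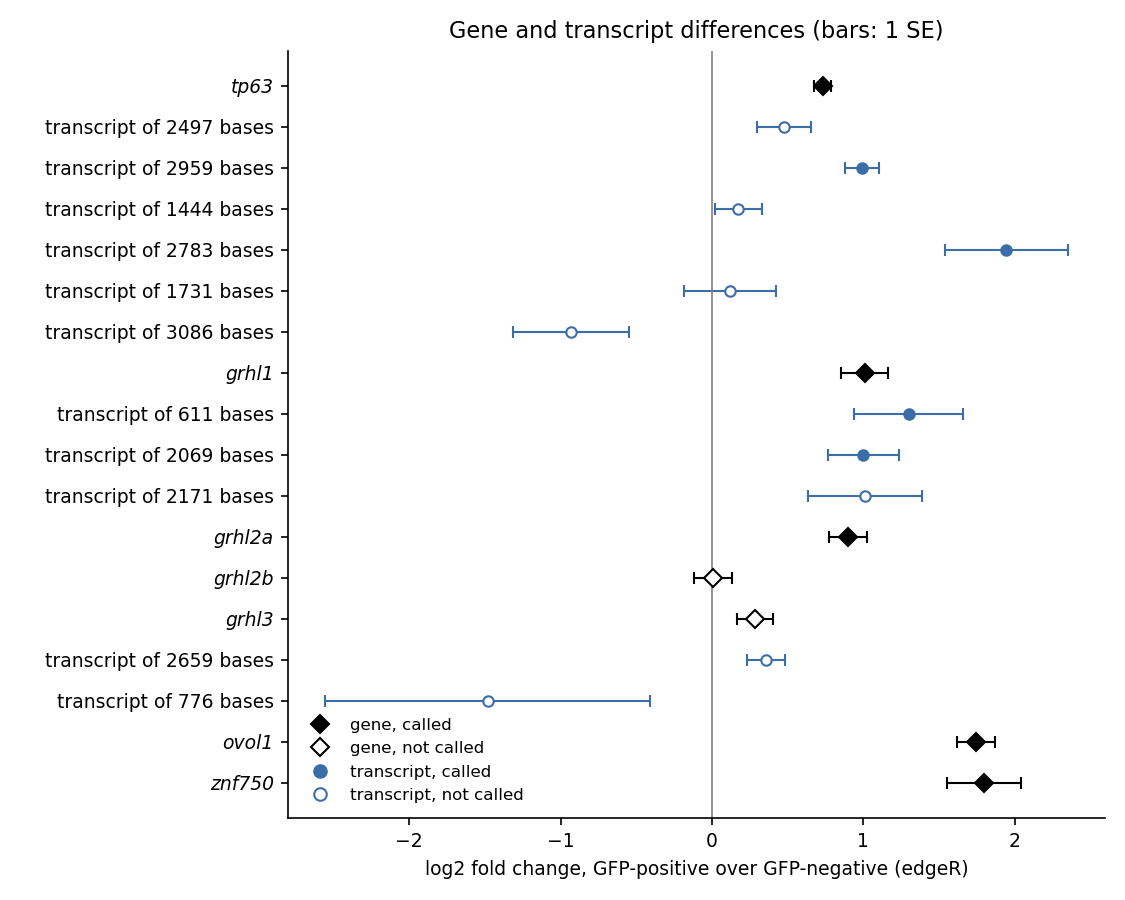
Log2 fold change (GFP-positive over GFP-negative, edgeR) with 1 SE for each regulator gene (diamonds) and, for genes with several transcripts, each tested transcript (circles); filled symbols were called. The 5 called genes lie right of 0, from 0.73 for tp63 to 1.80 for znf750, and the called transcripts of tp63 and grhl1 from 0.99 to 1.94, with grhl2b at 0.01.

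The *grhl1* level rested in part on a short transcript. ENSDART00000149715 of 611 bases made up 49.7% ± 5.0 of the gene's TPM in GFP-positive and 39.997% ± 13.8 in GFP-negative cells but 16.2% ± 3.8 and 12.8% ± 4.3 of its counts (SD, n = 3 each). It had 88.1, 80.0 and 74.4 counts in GFP-positive against 29.6, 44.2 and 20.8 counts in GFP-negative libraries. The main long transcript, ENSDART00000148455 of 2069 bases, had 248, 347 and 393 counts in GFP-positive against 146, 151 and 188 counts in GFP-negative libraries.

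Both transcripts were called higher, with log2 fold changes of 1.30 (SE 0.36, edgeR adjusted p = 0.0305) and 1.00 (SE 0.24, edgeR adjusted p = 0.0165). With any 1 library left out, the adjusted p of the short transcript ranged from 0.0164 to 0.0971 and that of the long one from 0.00523 to 0.0611. The call of the short transcript was lost without any library other than GFP-negative replicate 2, and that of the long one without GFP-positive replicate 2, GFP-negative replicate 1 or GFP-negative replicate 2. A further transcript, ENSDART00000149885 of 2171 bases, had 73.1 to 120 counts in GFP-positive and 27.3 to 60.3 in GFP-negative libraries (log2 fold change 1.01, SE 0.38, edgeR adjusted p = 0.0790). ENSDART00000149102 and ENSDART00000148378, of 586 and 302 bases, had at most 18.5 counts and were not tested, and ENSDART00000148796 of 539 bases was at 0 in all 6 libraries. The unequal-change test was not past its threshold for *grhl1* (adjusted p = 0.905) or *grhl3* (adjusted p = 0.171).

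Of the 21 transcripts of the 7 genes, 15 passed the filter on low counts and 7 were called, all higher in GFP-positive cells, where 17.7% of the 32736 transcripts tested were called higher, 17.0% lower and 34.7% in either direction. Without GFP-negative replicate 1 the number was 5. For *grhl2a*, *grhl2b*, *ovol1* and *znf750* the estimated counts were whole numbers in all 6 libraries, and for *tp63* and *grhl3* the gene sums were whole to within 0.005 counts. For *grhl1* 2 of 6 sums were whole; sums that are not whole arise where kallisto divides a read between genes.

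The Grainyhead-like genes together had 31.5, 34.5 and 33.5 TPM in GFP-positive and 22.5, 27.5 and 21.2 TPM in GFP-negative libraries, which did not overlap (exact permutation test, two-sided p = 0.10, the smallest that 3 against 3 libraries allow). Within that sum *grhl1* held 47.4% ± 1.6 in GFP-positive and 35.4% ± 8.3 in GFP-negative cells, *grhl3* 22.3% ± 2.3 and 31.6% ± 5.5, *grhl2b* 11.8% ± 1.3 and 17.9% ± 2.1, and *grhl2a* 18.5% ± 2.1 and 15.1% ± 1.4 (SD, n = 3 each). The exact two-sided p was 0.10 for *grhl1*, *grhl2b* and *grhl3* and 0.20 for *grhl2a*, or 0.133 and 0.20 after adjustment over the 4 shares, which sum to 100% and are not independent. GFP-negative replicate 1 had the lowest *grhl1* share, and without it the difference between the populations was 7.18 percentage points instead of 11.9. Without transcripts under 1000 bases, the share of *grhl1* was 27.4% ± 5.3 in GFP-positive and 20.7% ± 3.2 in GFP-negative cells (exact p = 0.30), and that of *grhl3* was 28.3% ± 3.3 and 32.9% ± 1.5. On these longer transcripts *grhl1* was below *grhl3* in GFP-positive replicate 1 (21.5% against 31.3%), and above it in replicates 2 (29.1% against 28.7%) and 3 (31.8% against 24.8%).

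**Figure D4:**
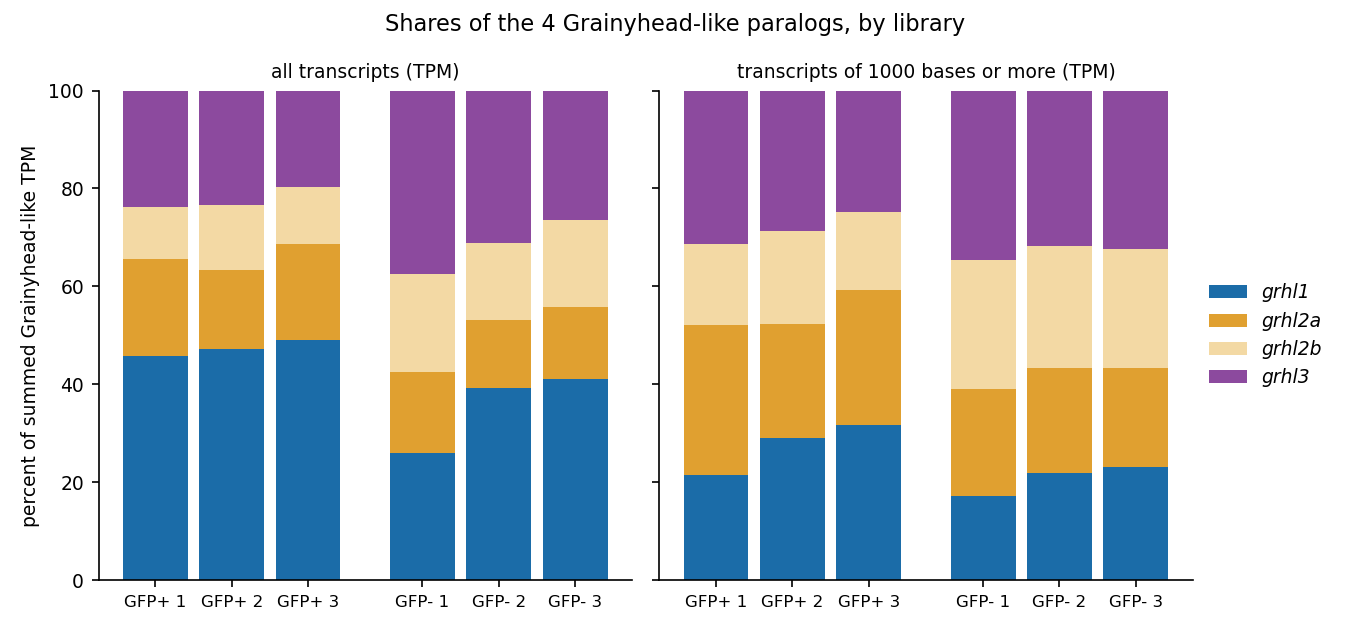
Share of each paralog in the summed Grainyhead-like TPM of each library, with the 3 GFP-positive libraries left of the 3 GFP-negative libraries, from all transcripts (left panel) and from transcripts of 1000 bases or more (right panel). grhl1 takes 45.8 to 49.0% in GFP-positive and 25.9 to 41.1% in GFP-negative libraries in the left panel, and its ranges overlap in the right panel.

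*ovol1* (ENSDARG00000076472, listed as *ovol1a* in a current gene name table) has a single transcript of 2536 bases. It had 7.004, 6.64 and 8.19 TPM in GFP-positive against 2.32, 2.10 and 2.59 TPM in GFP-negative libraries, from 506 to 689 and from 144 to 198 estimated counts. The lowest GFP-positive value was above the highest GFP-negative one by more than the whole range of either group. The log2 fold change was 1.75 (SE 0.13, edgeR adjusted p = 4.30e-08), or 3.36-fold. A second *ovol1* gene, listed as OVOL1 (1 of many) with ENSDARG00000078256 and outside the 7, had 4.47, 5.26 and 4.30 TPM in GFP-positive and 3.25, 3.79 and 3.84 TPM in GFP-negative libraries, a log2 fold change of 0.46 (SE 0.20, edgeR adjusted p = 0.0719).

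*znf750* (ENSDARG00000102267) was the rarest of the 7, with 1.55, 1.28 and 1.74 TPM in GFP-positive and 0.378, 0.600 and 0.457 TPM in GFP-negative libraries. These levels rested on 143, 95 and 143 estimated counts in GFP-positive and 30, 40 and 34 in GFP-negative libraries from its single transcript of 2480 bases. Its level passed the limit of 1 TPM only in GFP-positive cells. The groups did not overlap, and the log2 fold change was 1.80 (SE 0.25, edgeR adjusted p = 2.59e-05), or 3.47-fold. The error was the widest of the 7, and on log2(TPM + 1), which understates the change of rare transcripts, the difference was 0.77. *znf750*, *ovol1* and *grhl1* were called and at least 2-fold higher, as were 8.45% of all genes tested. *grhl1* stood at that limit, with a log2 fold change of 0.998 in DESeq2 and 0.894 without GFP-negative replicate 1.

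Ordered by level in GFP-positive cells, *tp63* at 87.5 ± 7.8 TPM and *grhl1* at 15.7 ± 1.1 TPM were followed by *grhl3* (7.40 ± 0.75), *ovol1* (7.28 ± 0.81), *grhl2a* (6.13 ± 0.53), *grhl2b* (3.92 ± 0.61) and *znf750* (1.53 ± 0.23 TPM; SD, n = 3 each). The libraries of *grhl3* overlapped those of *ovol1* and *grhl2a*, and the other neighbours did not overlap. In GFP-negative cells *tp63* at 63.1 ± 3.5 TPM was followed by *grhl1* (8.44 ± 2.51), *grhl3* (7.51 ± 1.67), *grhl2b* (4.22 ± 0.40), *grhl2a* (3.55 ± 0.38), *ovol1* (2.34 ± 0.25) and *znf750* (0.478 ± 0.113 TPM). There *grhl1* and *grhl3* overlapped, as did *grhl2b* and *grhl2a*. *ovol1* therefore ranked above both *grhl2* paralogs in GFP-positive cells and below both in GFP-negative cells. The place of *grhl1* rested in part on its transcript of 611 bases. Without transcripts under 1000 bases, its mean share of the summed Grainyhead-like TPM in GFP-positive cells was 27.4%. The shares of *grhl3*, *grhl2a* and *grhl2b* there were 28.3%, 27.1% and 17.2%. In GFP-negative cells the share of *grhl1* was 20.7%, against 32.9% for *grhl3*, 25.2% for *grhl2b* and 21.2% for *grhl2a*. The *grhl1* libraries overlapped those of *grhl3* and *grhl2a* in GFP-positive cells and those of *grhl2a* in GFP-negative cells.

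Epithelial genes that have been tied to Grainyhead-like factors, mainly in mammals, were mostly higher in GFP-positive cells. Of 25 tested genes of this epithelial list, 21 were called higher and 1 lower, where 24.1% of all genes tested were called higher and 25.0% lower. The median log2 fold change of the list was 0.78, beside 0.02 over all genes tested. *epcam*, an epithelial adhesion gene, was the most abundant at 896 ± 8.4 TPM in GFP-positive and 600 ± 20 TPM in GFP-negative libraries (log2 fold change 0.73, SE 0.05). *ppl*, for the cornified envelope protein periplakin, differed most, with 7.13 ± 0.58 against 0.451 ± 0.222 TPM (log2 fold change 4.13, SE 0.21), and is also one of the periderm markers, as is *evpla* of the same list. *vangl2*, a core gene of planar cell polarity, was the one called lower, at 41.5 ± 7.3 TPM in GFP-positive and 62.5 ± 4.6 TPM in GFP-negative libraries (log2 fold change -0.47, SE 0.08). On log2(TPM + 1) the calls were 18 higher and 2 lower. For 4 further symbols of the list no gene was found, and 1 gene was too low to test.

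The CP2 genes *tfcp2*, *tfcp2l1* and *ubp1* belong to the same superfamily of DNA-binding factors as Grainyhead. All 3, with a median log2 fold change of -0.78, were called lower, as were 25.0% of all genes tested. *tfcp2* had 20.8 ± 1.1 TPM in GFP-positive and 33.9 ± 2.0 TPM in GFP-negative libraries (log2 fold change -0.56, SE 0.07, edgeR adjusted p = 5.45e-06). *tfcp2l1* had 2.77 ± 0.14 and 5.996 ± 1.10 TPM (log2 fold change -1.08, SE 0.21), and *ubp1* 2.44 ± 0.18 and 4.48 ± 0.53 TPM (-0.78, SE 0.14). The CP2 genes were thus lower in GFP-positive cells while *grhl1* and *grhl2a* were higher, under each of the 6 scalings tried. *grhl2b* and *grhl3* were called under none of these scalings.

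Mesenchymal genes listed as opposed by Ovo-like and Grainyhead-like factors, mainly from work in mammals, did not move one way. Opposition of the listed fish genes by these factors was not tested. Of 18 tested, 7 were called higher and 8 lower, with a median log2 fold change of 0.20. The shares over all genes tested were 24.1% higher and 25.0% lower. *cdh2*, for N-cadherin, was the most abundant and was lower, at 259 ± 40 TPM in GFP-positive and 363 ± 18 TPM in GFP-negative libraries (log2 fold change -0.37, SE 0.06). The Snail gene *snai1b* was the lowest relative to GFP-negative cells, at 7.20 ± 0.76 against 20.03 ± 2.4 TPM (log2 fold change -1.38, SE 0.14), and *twist1b* was the highest among those called, at 13.5 ± 0.53 against 4.68 ± 0.88 TPM (log2 fold change 1.66, SE 0.15). By gene family, a grouping made after the values were seen, all 4 *zeb* genes and both *snai1* genes were among the 8 called lower, with *cdh2* and *fn1b*. Those called higher were *twist1a*, *twist1b*, *twist2*, *vim*, *fn1a*, *snai2* and *prrx1a*, the last 2 of which were not called on log2(TPM + 1). *prrx1a* had an edgeR adjusted p of 0.0462. It was also not called with DESeq2 (adjusted p = 0.0628) or with RLE factors in edgeR (adjusted p = 0.0582). *twist3*, not called in the main fit, was called on log2(TPM + 1) (limma adjusted p = 0.0447). *snai3* was not called because its mean level stayed at 0.943 TPM in GFP-positive against 0.132 TPM in GFP-negative libraries.

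**Figure D5:**
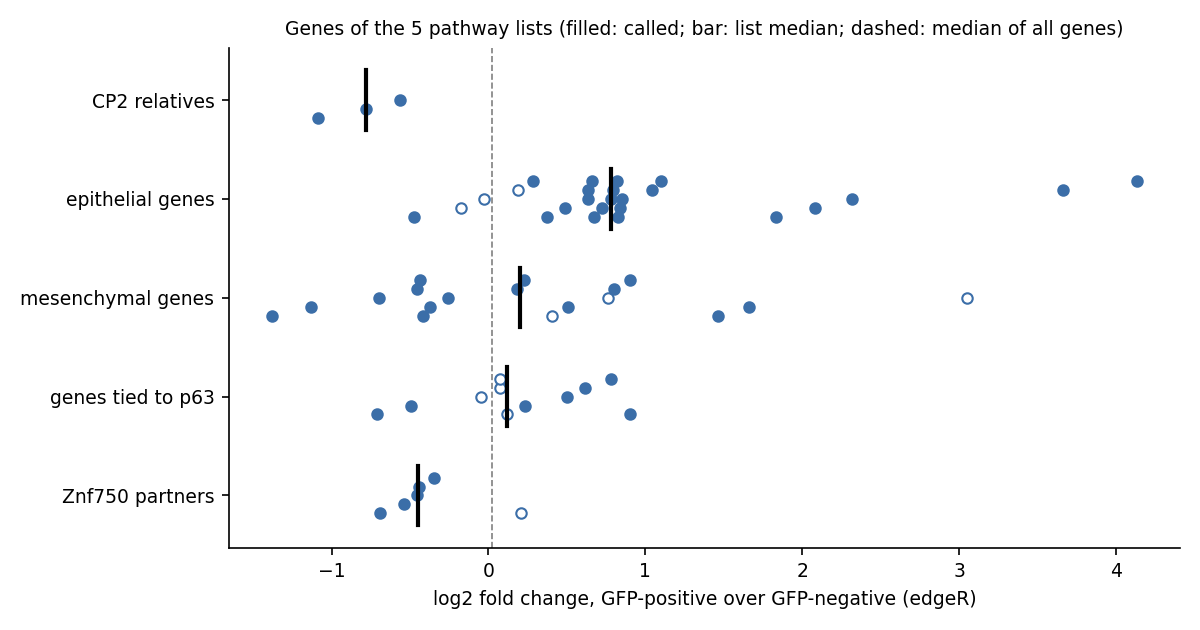
Log2 fold change (GFP-positive over GFP-negative, edgeR) of each tested gene in the 5 pathway lists; filled circles were called, bars mark the list medians and the dashed line marks the median of all genes tested, 0.02. Epithelial genes lie mostly right of 0 with a median of 0.78, CP2 relatives and Znf750 partners left of it with medians of -0.78 and -0.45, and mesenchymal genes lie on both sides.

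Among 11 tested genes related or tied to p63 in mammals, the median log2 fold change was 0.12. Where 24.1% of all genes tested were called higher and 25.0% lower, 5 of these 11 genes were called higher, 2 lower and 4 not. *perp*, for a membrane protein of desmosomes, was the most abundant of them, at 109 ± 7.1 TPM in GFP-positive and 101 ± 5.2 TPM in GFP-negative libraries (log2 fold change 0.23, SE 0.05, edgeR adjusted p = 0.0016); its libraries overlapped in level, and limma on log2(TPM + 1) gave an adjusted p of 0.165. *dlx5a*, a homeobox gene, differed most upward, at 20.7 ± 1.0 against 11.9 ± 1.3 TPM (log2 fold change 0.90, SE 0.11). Both genes called lower encode Jagged ligands of Notch: *jag2b*, at 40.3 ± 6.3 against 59.3 ± 5.5 TPM (log2 fold change -0.49), and JAG2 (1 of many), at 0.662 ± 0.135 against 1.17 ± 0.094 TPM (-0.71).

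Genes listed here as partners of human ZNF750 were mostly lower in GFP-positive cells, where *znf750* itself was higher. The list had 8 symbols and 7 genes found, of which 6 were tested. Of 6 tested genes, with a median log2 fold change of -0.45, 5 were called lower, as were 25.0% of all genes tested. *hdac1*, for a histone deacetylase, had 683 ± 24 TPM in GFP-positive and 1139 ± 42 TPM in GFP-negative libraries (log2 fold change -0.54, SE 0.04). *kdm1a*, for a histone demethylase, had 241 ± 23 and 464 ± 32 TPM (log2 fold change -0.69, SE 0.05). The remaining gene was *klf4*, which had 3.17 ± 0.64 and 2.94 ± 0.27 TPM (log2 fold change 0.21, SE 0.18, edgeR adjusted p = 0.35) and did not pass the test.

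For each called regulator, the 3 genes whose pattern over the 6 libraries lay nearest were found by the Euclidean distance of log2 CPM centred on each gene's mean, among 16752 genes with a mean level above 1 TPM. For *tp63* these were *shha*, a Hedgehog ligand and one of the notochord markers, *mdm2*, for a ubiquitin ligase, and *zgc:92518*, at distances of 0.065, 0.071 and 0.076. Their log2 fold changes were 0.76, 0.69 and 0.76. The distance includes the difference between the populations, so genes with a like fold change lie near by construction. Shared tissue or regulation was not tested. For *grhl1* they were *adamts8a*, *rab39ba* and *CU655961.1* (0.131 to 0.226), and for *grhl2a* they were *cnot6l*, *zgc:91849* and *optn* (0.13 to 0.137). *ovol1* lay nearest to *tmem163b*, *zgc:101583* and *si:ch73-269m23.5* (0.170 to 0.188), and *znf750* to *mfsd6b*, the chloride channel gene *ano1* and *islr2* (0.220 to 0.283). *tp63*, with the most counts, had the smallest of these distances, and *znf750*, with the fewest, the largest.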

How the data were processed

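RNA of sorted GFP-positive and GFP-negative cells was amplified with SMART-Seq v4 and made into Nextera XT libraries, which do not mark strand. The authors trimmed reads with Trimmomatic (0.35 in the submitters' processing notes) and quantified them against zv10 cDNA with kallisto (0.41 in those notes). For each transcript the authors deposited an estimated count, not normalized, and a TPM value. A series table repeats the authors' TPM, equal to the library tables for 100% of transcripts within a relative tolerance of 1e-04.

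Counts were summed per Ensembl gene, rounded, and compared over all 6 libraries by the quasi-likelihood F test of edgeR 4.0.16 (R 4.3.3) with TMM, filterByExpr and Benjamini-Hochberg adjustment. The common biological coefficient of variation was 0.0952. Standard errors are the log2 fold change over the square root of F. Transcripts were tested alike, but were called on an adjusted p below 0.05 alone, without the limit of 1 TPM. Their usage was tested with diffSpliceDGE. Tried besides were RLE factors, plain library sizes, DESeq2 1.42.0, no count filter, a replicate block, limma 3.58.1 on log2(TPM + 1) and log2(TPM + 0.1), an adjusted p below 0.01, no TPM limit, a limit of 1 TPM for transcripts, and each library left out; usage by log ratios and sums without transcripts under 1000 bases were added after the data were seen. The statistical code was checked on simulated counts. Named were every regulator and transcript, in each pathway list the most abundant gene, the called genes with the largest change in each direction and up to 5 genes against the majority, and the 3 nearest patterns. Regulators and lists were chosen with earlier results of these data known. Symbols of 5 pathway genes were not found. One list gene is not reported here and was left out of all counts of its list. Sequences were not used here.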

Additional observations from a re-analysis of the deposited data

How the results depend on the processing

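Between 5 and 6 of the 7 regulators were called under every setting tried, and between 5 and 7 of their transcripts. The calls and directions of *tp63*, *grhl1*, *grhl2a*, *ovol1* and *znf750* held in each of the 15 alternatives. The sixth call was *grhl3*, gained without GFP-positive replicate 3 (0.37), without GFP-negative replicate 1 (0.36), with sums from transcripts of 1000 bases or more (0.35, adjusted p = 0.0170) and with a replicate block (0.29, adjusted p = 0.0431). The log2 fold change of *grhl3* turned negative in limma on log2(TPM + 1) (-0.0025) and log2(TPM + 0.1) (-0.00033). That of *grhl2b* was near 0 and turned negative with DESeq2 (-0.0020), RLE factors (-0.0025), limma on log2(TPM + 1) (-0.091) and log2(TPM + 0.1) (-0.11), and reached -0.12 to 0.087 when single libraries were left out, with its transcript at -0.10 to 0.11. The *tp63* transcript of 1731 bases ranged from -0.14, without GFP-positive replicate 3, to 0.42. The cause of these reversals was not tested. The median of all genes was -0.087 in limma on log2(TPM + 0.1) and 0.024 in the edgeR fit.

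Unequal transcript usage was called by diffSpliceDGE for 1 regulator, *tp63*. Its adjusted p was 0.0042 to 0.0407 under the replicate block, without a filter and with single libraries left out. Usage was called for 0 regulators when tested on log ratios by limma (adjusted p = 0.196 for *tp63*), which treats both the spread and the gene's p differently. The share difference of *grhl1* ranged from 7.18 to 14.8 percentage points with single libraries left out. The total of 52 calls in the pathway lists became 51 with DESeq2, 48 with limma on log2(TPM + 1) and 51 with a replicate block. Over all alternatives tried for the lists the total was 48 to 51. These totals are net of gains and losses. On log2(TPM + 1) *esrp1*, *dspa*, *elf3*, *snai2*, *prrx1a* and *perp* lost their call, and *marveld2a* and *twist3* gained one. Deviations of same-numbered libraries of the 2 populations, centred within each population, had correlations of 0.058, -0.053 and -0.054. The largest correlation was 0.155, for GFP-positive replicate 3 with GFP-negative replicate 2. Centring makes such correlations cancel in part, so they cannot decide which libraries shared a batch. The series text says that each batch gave both populations, but no label says that a number marks the batch. The main fit had no block, as the study's methods name no batch term.

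Depth limits *znf750*, with 30 to 40 counts in GFP-negative libraries, the short transcripts of *grhl1* and *grhl3*, and the split of counts between transcripts, whose estimation error is not given in the tables.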
